A study of Homo sapiens with 3 samples.

Results

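The nuclear genes for the subunits of the respiratory chain were described in C4-2 cells, a human prostate adenocarcinoma line derived from LNCaP. A gene was a member when it was nuclear and protein-coding and its GENCODE symbol began with NDUFA, NDUFB, NDUFC, NDUFS or NDUFV (assembly factors named NDUFAF left out), UQCR, COX4I, COX5, COX6, COX7, COX8 or ATP5, or was SDHA, SDHB, SDHC or SDHD. This gave 90 of the 58302 genes in the files, among 19695 nuclear protein-coding genes. Total RNA of unmodified C4-2 cells, depleted of ribosomal RNA, was sequenced in 3 libraries labelled as replicates of 1 group, with no treatment named. Nothing in the labels ties the replicates to cultures of their own, so each error below is the spread between these libraries and may be technical. The series set adenocarcinoma lines beside neuroendocrine ones and depleted neuropilin-2 in the neuroendocrine cells; the other samples were not analysed here, so no condition is compared.

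The respiratory chain sits in the inner mitochondrial membrane. Complexes I and II pass electrons from NADH and succinate to ubiquinone, complex III passes them on to cytochrome c, and complex IV gives them to oxygen. Complexes I, III and IV pump protons as they do so, and complex V, the ATP synthase, makes ATP from the returning protons. Complex II is built from nuclear gene products alone, whereas the other complexes also hold subunits made from mitochondrial DNA. Prostate epithelium is known for exporting citrate in place of oxidising it, and prostate carcinoma cells for oxidising more of it.

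The libraries held 47513470 to 51200272 reads assigned to genes, and each pair of them differed by more than counting noise (chi-square per gene 5.40 to 10.6 over 21039 genes), so none was a second deposit of the same library. All 8 prostate luminal markers checked were detected, with a summed level of 3931 to 3994 TPM. TPM is a level per exon length, scaled to the same sum in every library. Of 6 neuroendocrine markers 5 were detected, at a summed 5.46 to 6.88 TPM. Of 4 fibroblast markers 1 was detected, PDGFRB at a mean of 1.17 TPM, and the 4 summed to 1.13 to 1.33 TPM. Of 4 blood markers 1 was detected, CD14 at a mean of 0.572 TPM, and the 4 summed to 0.442 to 0.826 TPM. COL1A2, CD3E and HBB had 0 reads. In bulk RNA, fewer cells that make a transcript and less transcript per cell cannot be told apart.

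Nearly all members were detected, and their median level was above that of the other genes. With at least 10 reads required in every library, 86 of the 90 members (95.6%) were detected, beside 71.7% of the other nuclear protein-coding genes. Means of 100 TPM or more were found in 41 members (45.6%), beside 6.61% of the other genes. The median detected member lay at 98.0 ± 1.79 TPM (SD, n = 3), beside 15.6 ± 0.528 TPM for the other detected genes. Together the members took 1.10 ± 0.0110% of reads and 1.54 ± 0.0171% of TPM. The undetected members were COX4I2, COX6A2, COX8C and the readthrough gene NDUFC2-KCTD14.

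Complex III had the highest median and complex II the lowest. The median level of the detected members was 80.2 ± 3.35 TPM in complex I (37 of 38 detected), 63.6 ± 2.47 TPM in complex II (4 of 4), 152 ± 1.596 TPM in complex III (9 of 9), 130 ± 2.29 TPM in complex IV (16 of 19) and 117 ± 2.38 TPM in complex V (20 of 20). NDUFA4 and NDUFA4L2 were counted with complex IV, where the NDUFA4 protein is found in humans. Differences between complexes were taken within each library as the difference of median log2(TPM + 0.1) over all members, which understates the distance of low genes. Complex III exceeded complex I by 0.96 ± 0.0480 log2 units and complex II by 1.36 ± 0.0848, and complex V exceeded complex I by 0.58 ± 0.0637. All 10 pairs had the same sign in 3 of 3 libraries, and each had p = 0.25 in a sign-flip permutation test (exact, two-sided), before and after adjustment over the pairs; 0.25 is the smallest p that 3 libraries allow, so no pair could pass 0.05. The sign of I against II, IV against I, IV against II, III against V and V against IV turned with the gene length used or with which members were kept, while complex III stayed above I, II and IV and complex V above I and II. With the length of the canonical transcript, complex III minus complex V was −0.49 log2 units.

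**Figure D1:**
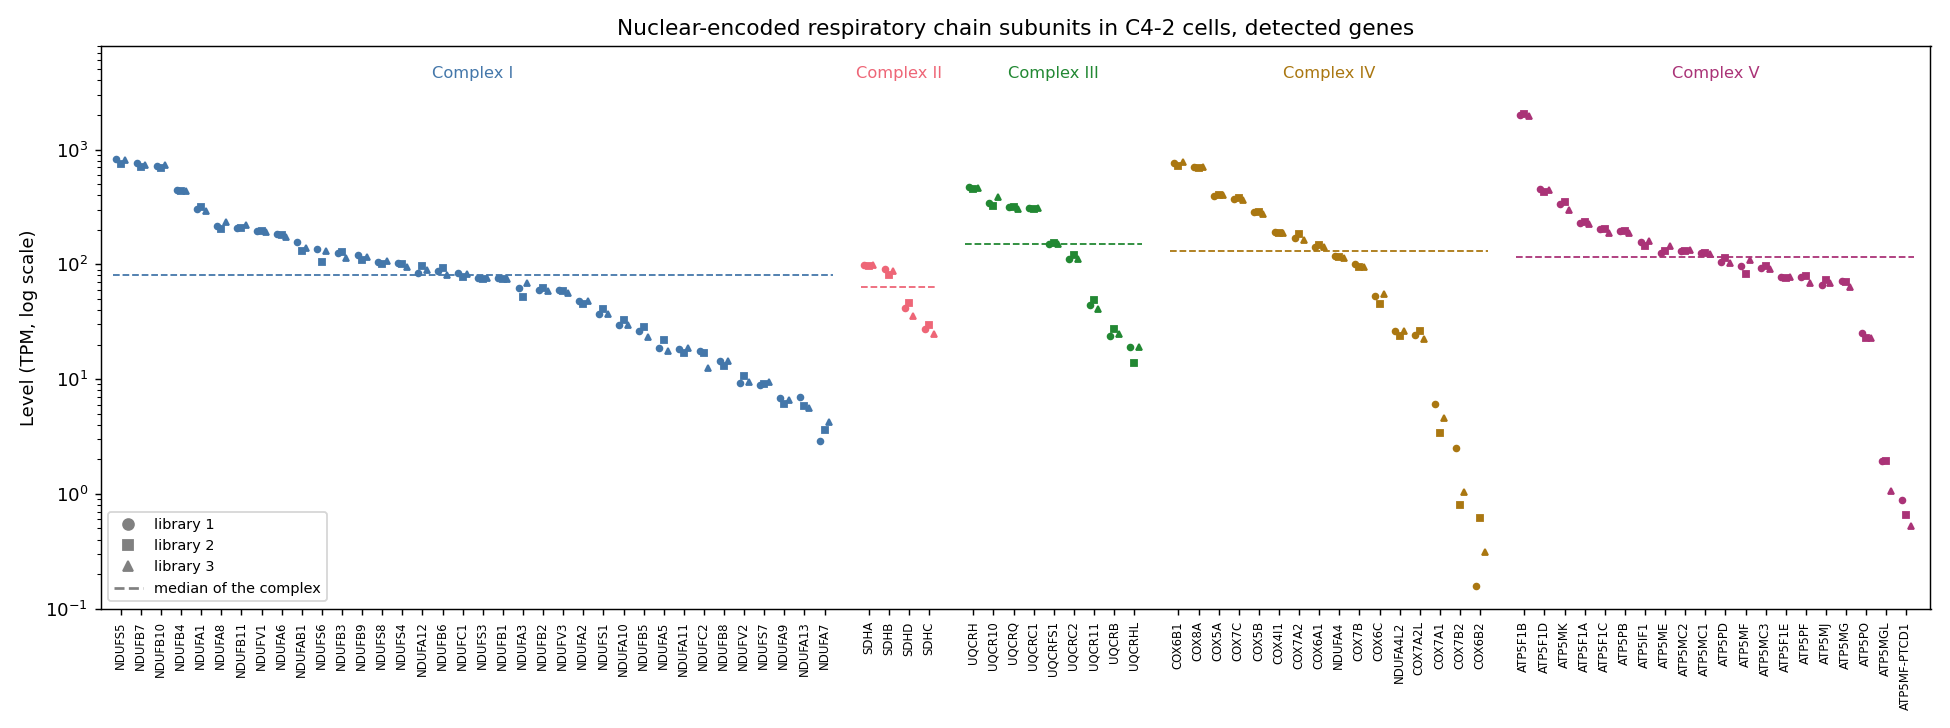
Level of detected members (TPM, log axis; 1 gene of complex I is not shown) in libraries 1, 2 and 3 (circle, square, triangle), ordered by mean level within its complex, with a dashed line at the median of the complex. The 3 symbols of a gene lie close together for most genes, while genes of one complex are spread from 3.59 to 796 TPM in complex I and from 0.686 to 2002 TPM in complex V.

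The promoters of members were searched for letters bound by known regulators of mitochondrial genes, and 5 are shown because each stands for a complex that the levels below describe. NRF1 (nuclear respiratory factor 1), GABPA (also called NRF2 alpha) and YY1 are transcription factors known for their sites in such promoters. RefSeq windows of 300 bases, 250 before and 50 after the annotated start (GRCh38.p14), were found for 71 of the 90 members. The 10-base site of NRF1 (capitals below) was in 17 of the 71 member windows (23.9%), beside 8.51% of the windows of other protein-coding genes and 6.28% of all windows. The letters of GABPA (CCGGAAG) were in 20 (28.2%), beside 14.2% and 10.7%. The letters of YY1 (AAGATGG) were in 16 (22.5%), beside 6.33% and 6.06%. At least 1 of the 3 was in 41 member windows (57.7%), beside 25.4% and 20.5%. The cyclic AMP element TGACGTCA was in 5 (7.04%), beside 2.57% and 1.98%, and TATAAA in 7 (9.86%), beside 9.62% and 12.0%. Both strands were read, each set of letters was counted by itself, and a window may hold several that overlap. The median GC content was 61% in member windows and 62.7% in those of other protein-coding genes, and no test was made of these shares.

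Matches were counted in each complex. All 7 windows of complex III and all 3 of complex II held letters of NRF1, GABPA or YY1, beside 15 of 33 in complex I, 7 of 14 in complex IV and 9 of 14 in complex V. In complex IV the only NRF1 match stood before COX8C, which had at most 2 reads in any library. The sequences run 5′ to 3′ on the strand of the gene and end at the last base before the start. Capitals mark the NRF1 letters on either strand in NDUFB4, SDHA, UQCRC1 and ATP5F1C and the GABPA letters in COX6B1, which stands in for complex IV. Each is the detected member of its complex with the highest level among those with such a match lying whole within the 250 bases upstream.
NDUFB4, complex I, chr3:120596086-120596335, plus strand: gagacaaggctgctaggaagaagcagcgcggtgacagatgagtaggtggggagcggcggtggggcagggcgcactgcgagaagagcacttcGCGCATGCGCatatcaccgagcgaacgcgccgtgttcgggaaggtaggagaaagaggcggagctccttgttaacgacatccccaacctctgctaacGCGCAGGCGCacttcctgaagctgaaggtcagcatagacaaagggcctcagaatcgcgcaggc
SDHA, complex II, chr5:218070-218319, plus strand: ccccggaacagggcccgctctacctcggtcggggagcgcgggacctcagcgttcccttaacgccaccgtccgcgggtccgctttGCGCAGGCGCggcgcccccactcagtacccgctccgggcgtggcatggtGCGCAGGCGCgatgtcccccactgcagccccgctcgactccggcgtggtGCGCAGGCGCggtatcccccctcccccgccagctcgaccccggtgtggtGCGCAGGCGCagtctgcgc
UQCRC1, complex III, chr3:48609647-48609896, minus strand: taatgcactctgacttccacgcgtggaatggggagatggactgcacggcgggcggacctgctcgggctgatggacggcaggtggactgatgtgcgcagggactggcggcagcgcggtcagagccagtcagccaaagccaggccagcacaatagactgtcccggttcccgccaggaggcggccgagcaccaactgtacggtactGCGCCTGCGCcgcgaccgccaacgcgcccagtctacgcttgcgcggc
COX6B1, complex IV, chr19:35648073-35648322, plus strand: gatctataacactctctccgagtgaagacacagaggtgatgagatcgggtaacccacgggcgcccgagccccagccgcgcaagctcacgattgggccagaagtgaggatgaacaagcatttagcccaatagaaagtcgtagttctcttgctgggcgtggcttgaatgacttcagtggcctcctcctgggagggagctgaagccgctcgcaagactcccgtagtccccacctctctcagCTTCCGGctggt
ATP5F1C, complex V, chr10:7787927-7788176, plus strand: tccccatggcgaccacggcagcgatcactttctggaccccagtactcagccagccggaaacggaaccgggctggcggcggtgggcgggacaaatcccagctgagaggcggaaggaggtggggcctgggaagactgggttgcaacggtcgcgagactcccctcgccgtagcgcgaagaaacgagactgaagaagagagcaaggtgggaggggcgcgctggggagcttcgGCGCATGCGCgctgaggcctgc
The SDHA promoter held 4 NRF1 matches, at positions -166, -117, -68 and -19 from the start, all with the same letters. These 4 stand at even spacing with similar bases between them, so they need not be independent matches. The NDUFB4 promoter held 2 in the printed stretch, at -159 and -63, and a further one crosses the start. A match is a description of these letters and not a measured site, and binding was not measured.

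The genes of complex I, the NADH dehydrogenase, ran from 3.59 to 796 TPM where detected. Of its 38 members 37 reached 1 TPM, 32 reached 10 TPM and 15 reached 100 TPM. NDUFS5, an accessory subunit on the intermembrane side (chromosome 1, 39026318 to 39034636, plus strand, GRCh38), was the highest with 830.5, 752 and 806 TPM in libraries 1, 2 and 3. NDUFB7 and NDUFB10, accessory subunits of the membrane arm, had 763, 709 and 739 TPM and 724, 695 and 734 TPM. In each of these genes library 2 was the lowest. NDUFB4 followed at 440 ± 7.61 TPM and NDUFA1, which is needed to build the membrane arm, at 302 ± 11.7 TPM (SD, n = 3).

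The catalytic core of complex I lay among its accessory subunits. The 7 nuclear core subunits, among which are those that hold the flavin and the iron-sulfur clusters, had a median of 75.2 ± 1.28 TPM and ran from 9.09 to 195 TPM. The other 30 detected members had a median of 83.5 ± 1.81 TPM and ran from 3.59 to 796 TPM. With canonical lengths the medians were 205 TPM in the core and 151 TPM in the others. NDUFV1, the flavin-binding subunit, was the highest core member at 195 ± 2.17 TPM. NDUFS8 lay at 104 ± 2.28 TPM, NDUFS3 at 75.2 ± 1.28 TPM and NDUFS1, the largest of the core, at 38.0 ± 2.36 TPM. NDUFV2 and NDUFS7, which hold iron-sulfur clusters, lay at 9.74 ± 0.719 and 9.09 ± 0.320 TPM. The 3 lowest detected members of complex I were NDUFA7 with 2.91, 3.63 and 4.24 TPM, NDUFA13 with 6.97, 5.83 and 5.62 TPM and NDUFA9 with 6.86, 6.09 and 6.53 TPM, all accessory subunits. NDUFC2-KCTD14, which reads through from NDUFC2 into its neighbour, had 0 reads in every library, and all of its exon bases belong to other genes too. NDUFC2 itself had 17.6, 16.9 and 12.4 TPM.

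Low level and exon sharing went together in complex I. Reads over exons that several genes share are missing from the deposited counts, and in 9 of the 90 members at least 50% of the bases of the canonical transcript also lie in exons of another gene. In complex I these were NDUFV2 (89.97% of bases shared), NDUFA13 (83.9%), NDUFA7 (77.9%), NDUFB8 (72.0%), NDUFA11 (68.2%) and NDUFS7 (51.3%), beside NDUFC2-KCTD14. The 6 detected ones had a median of 9.42 TPM (range 3.59 to 17.9), the 4 members with 20 to 50% shared a median of 53.7 TPM (15.6 to 115), and the 27 members with less than 20% shared a median of 104 TPM (6.49 to 796). With canonical lengths these medians were 24.1, 181 and 192 TPM. The group with at least 50% shared thus stayed lowest, while the step between the other groups depended on the length used. Across the 37 detected genes the level and the shared percentage had a Spearman rho of −0.71, over genes of the same libraries, which are not independent. Level and merged exon length had a rho of −0.64 over the same 37 genes. Over all 86 detected members the rho with the shared percentage was −0.47 and that with length −0.41. The SD of log2 TPM between complex I members was 1.99 ± 0.0186 (SD over 3 libraries), and 1.62 ± 0.0248 over the 27 members with less than 20% shared. NDUFA9 was low with 10.9% of its bases shared. Levels of the shared genes are thus uncertain, and how much of each low value comes from dropped reads was not tested. In complex V, ATP5PO (63.8% shared), the hinge between the stalk and the head, lay at 23.5 ± 1.37 TPM, and ATP5MF-PTCD1 (100%) at 0.686 ± 0.177 TPM. COX8A was high although 35.4% of its bases are shared.

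**Figure D2:**
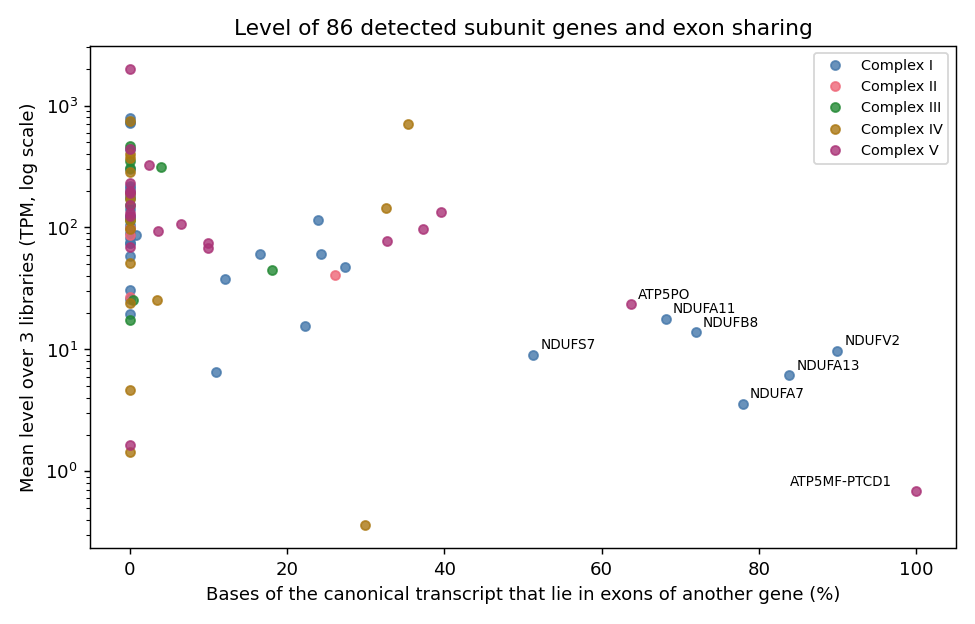
Mean level over 3 libraries (TPM, log axis) of the 86 detected members against the percentage of bases of the canonical transcript that lie in exons of another gene; colours mark the complexes, and genes with at least 50% shared are named. The 8 named genes lie at or below 23.5 TPM, whereas genes with less than 20% shared run from 1.45 to 2002 TPM.

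Complex II, the succinate dehydrogenase, also serves the citrate cycle. SDHA, the flavoprotein, had 98.8, 97.4 and 98.7 TPM and SDHB, the iron-sulfur protein, 90.8, 80.4 and 87.6 TPM. The membrane anchors were lower: SDHD had 41.8, 46.0 and 35.1 TPM and SDHC 27.2, 29.4 and 24.8 TPM. On this scale the catalytic and anchor genes did not overlap in any library. Within complex II the anchor transcripts recurred most in the genome: 61.1% of the 50-base stretches of the SDHC transcript and 50.3% of those of SDHD were found at another place, beside 21.3% for SDHA and 0% for SDHB. A read lying whole within such stretches maps to several places and is not counted, and its part in these levels was not tested. With the canonical length of 1308 bases in place of the merged exon length of 14160 bases, SDHC lay at 194 TPM, SDHA at 203 TPM, SDHB at 139 TPM and SDHD at 57.5 TPM, so that the catalytic and anchor genes overlapped and the low value of SDHC depended on the length used.

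In complex III 6 of 9 members reached 100 TPM. UQCRH, the hinge protein that binds cytochrome c1, was the highest with 473, 455 and 461 TPM. UQCR10 had 341, 323 and 386 TPM and UQCRQ 314, 315 and 302 TPM, both small subunits. The core proteins UQCRC1 and UQCRC2 lay at 308 ± 1.86 and 114 ± 6.32 TPM, and UQCRFS1, the Rieske iron-sulfur protein, at 152 ± 1.596 TPM. UQCR11 lay at 44.5 ± 3.92 TPM. The lowest were UQCRB, a ubiquinone-binding subunit, with 23.9, 27.2 and 24.7 TPM, and UQCRHL with 19.1, 13.9 and 19.0 TPM. UQCRHL is a copy of UQCRH, and 21.1% of its 50-base stretches recur elsewhere in the genome, as do 33.4% of those of UQCRH. Reads lying whole within such stretches are not counted, and how many of them UQCRHL and UQCRH share was not tested.

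In complex IV, cytochrome c oxidase, 13 of 19 members lay above 10 TPM. COX6B1, which faces the intermembrane space, was the highest with 764, 718 and 779 TPM (chromosome 19, 35648223 to 35658861, plus strand). COX8A had 703, 690.3 and 711 TPM and COX5A 397, 403 and 403 TPM. COX7C and COX5B lay at 370.05 ± 5.11 and 283 ± 5.90 TPM. COX6C had 53.3, 45.0 and 55.5 TPM, lowest in library 2. The 3 undetected subunit genes were alternatives to abundant ones.

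In C4-2 cells the widely made form of each complex IV subunit exceeded its tissue-restricted alternative. COX4I2, a form of lung and of hypoxia, had 0, 4 and 0 reads, against 191, 187 and 186 TPM for COX4I1. Per length, the reads of COX4I2 over all libraries were 0.0628% of those of COX4I1 (95% exact Clopper-Pearson interval 0.0171 to 0.161%, counting error only). This interval and those below take each read as independent. COX6A2, a heart and skeletal muscle form, had 0 reads in every library, against 142, 146 and 141 TPM for COX6A1, and was at least 406-fold lower when set at a floor of 3 reads per library, with 46.0% of its exon bases shared with another gene. COX7A1, also a muscle form, was present at 6.04, 3.42 and 4.58 TPM, against 171, 182 and 164 TPM for COX7A2. COX7A1 was thus detected in every library, did not overlap with COX7A2 and differed from it by −5.21 ± 0.454 log2 units. The muscle markers CKM, MYH7, TNNT2 and ACTA1 were all undetected, at a summed 0.448 to 1.02 TPM.

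Forms known from testis were low. COX6B2 had 10, 36 and 20 reads, or 0.156, 0.613 and 0.314 TPM, which per length was 0.0469% of COX6B1 (interval 0.0363 to 0.0597%), with 30.9% of its exon bases shared. COX7B2 had 2.51, 0.805 and 1.04 TPM, against 101, 94.5 and 94.7 TPM for COX7B. COX8C had 0, 2 and 2 reads, or 0.0219% of COX8A per length (interval 0.00596 to 0.0560%). COX7B2 was highest in library 1 and COX6B2 in library 2, so these low genes did not go together.

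Other related genes of complex IV were expressed side by side. NDUFA4L2, a gene known for its induction in hypoxia, had 26.0, 23.6 and 26.0 TPM, against 118, 117 and 113 TPM for NDUFA4, a difference of −2.20 ± 0.0952 log2 units. COX7A2L, which takes part in joining complexes III and IV, had 24.2, 26.2 and 22.2 TPM and differed from COX7A2 by −2.83 ± 0.0434 log2 units. These differences had the same sign in 3 of 3 libraries, as did all 11 differences between related genes, each with p = 0.25 before and after adjustment over the 11 in the same exact permutation test. UQCRHL differed from UQCRH by −4.75 ± 0.242 log2 units.

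**Figure D3:**
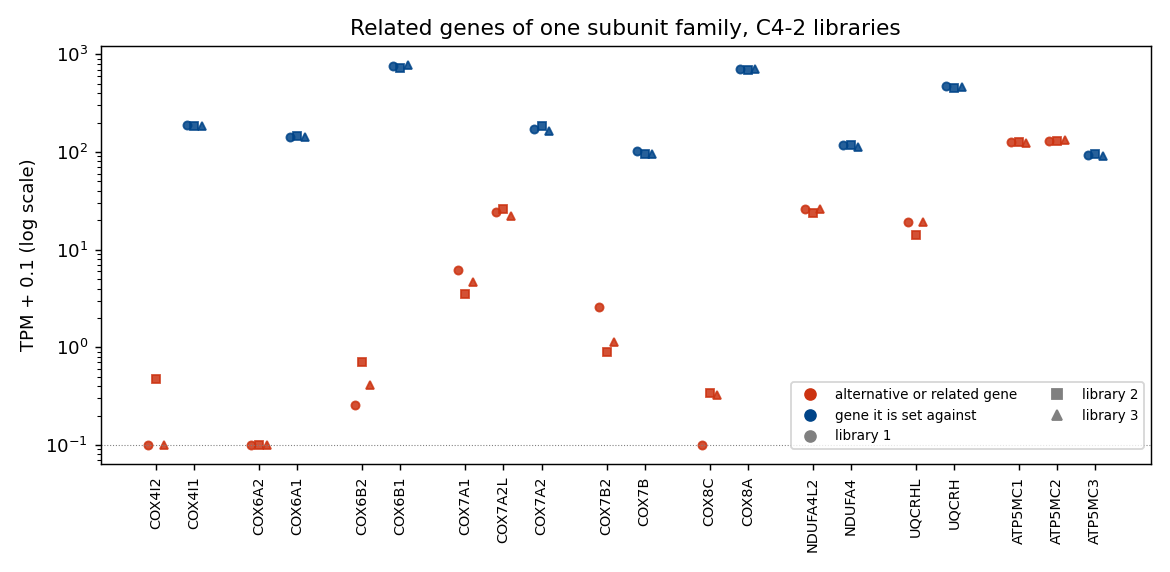
Level (TPM + 0.1, log axis) of related genes of one subunit family in libraries 1, 2 and 3 (circle, square, triangle), each alternative or related gene (red) left of the gene it is set against (blue); the dotted line is 0 TPM. The alternatives of complex IV subunits lie below their partners in every library, whereas ATP5MC1 and ATP5MC2 lie above ATP5MC3.

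Complex V, the ATP synthase, held the single most abundant member. ATP5F1B, the catalytic beta subunit of the head (chromosome 12, 56638175 to 56646068, minus strand), had 2019, 2022 and 1965 TPM. The alpha subunit gene ATP5F1A, whose protein is present in equal number to beta, lay at 230 ± 5.01 TPM. ATP5F1B thus exceeded ATP5F1A 8.70 ± 0.149-fold in TPM, 6.06 ± 0.104-fold with canonical lengths and 1.85 ± 0.0317-fold in reads, since the merged exons span 10908 bases in ATP5F1A and 2322 in ATP5F1B. ATP5F1D, the delta subunit of the central stalk, had 452, 429 and 445 TPM. ATP5MK, a small membrane subunit linked to pairing of the synthase, had 334, 349 and 298 TPM.

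The parts of the synthase had these levels. The 4 peripheral stalk genes had a median of 91.2 ± 5.48 TPM, the 5 small membrane subunits 96.4 ± 13.2 TPM and the 5 head and central stalk genes 230 ± 5.01 TPM. With canonical lengths these medians were 179, 274 and 289 TPM. ATP5IF1, the inhibitor that blocks reversal of the enzyme, lay at 154 ± 7.64 TPM. The ring of c subunits is encoded by 3 genes whose mature proteins are the same and whose import sequences differ. All 3 were expressed, ATP5MC1 with 126, 125 and 123 TPM, ATP5MC2 with 131, 130.04 and 134 TPM and ATP5MC3 with 92.4, 95.9 and 90.2 TPM. ATP5MC1 exceeded ATP5MC3 by 0.43 ± 0.0370 log2 units and ATP5MC2 exceeded it by 0.50 ± 0.0647, in 3 of 3 libraries. With the canonical length, ATP5MC2 minus ATP5MC3 was 1.77. The lowest members were ATP5MGL, a copy of ATP5MG, with 1.94, 1.95 and 1.05 TPM, and ATP5MF-PTCD1, a readthrough gene, with 0.875, 0.659 and 0.524 TPM.

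Differences between the libraries were small but often larger than counting noise, with each read taken as independent. Each gene's 3 counts were tested for homogeneity by a chi-square test against library sizes normalised by the trimmed mean of M-values (TMM), with Benjamini-Hochberg adjustment over 21039 detected genes. An adjusted p of 0.05 was passed by 46.1% of all genes tested, 52% of all nuclear protein-coding genes and 51.9% of those that are no member. Among the members 65 of 86 (75.6%) passed: 26 of 37 in complex I, 4 of 4 in complex II, 8 of 9 in complex III, 12 of 16 in complex IV and 15 of 20 in complex V. The test finds smaller differences in genes with many reads, and the part of read number in the members' share was not tested. Between the quartiles of the members' reads (2080 to 7505 reads), 32 of 42 members passed, beside 62.3% of other nuclear protein-coding genes in that range. The median SD of log2 CPM over the libraries was 0.0773 in members and 0.0842 in the other genes. The p-values are too small if mates were counted separately, which was not tested. COX4I2 (0, 4 and 0 reads), COX8C (0, 2 and 2) and COX6B2 (10, 36 and 20) had even counts only. So did COX7B2 (34, 10 and 14) and ATP5MGL (26, 24 and 14). ATP5MF-PTCD1 (42, 29 and 25), COX7A1 (102, 53 and 77) and NDUFA7 (69, 79 and 100) also had odd ones. With the statistic divided by 2, a guard for mates counted separately, 39 members (45.3%) passed. The share was 17.6% of all genes tested and 22.3% of the other nuclear protein-coding genes. Without library 2, 25 of 86 members (29.1%) passed, beside 27.5% of the other nuclear protein-coding genes.

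The members with the smallest p-values shared a low library 2. ATP5MF, a small membrane subunit of the synthase, had 72.2, 60.5 and 84.0 CPM (counts scaled by TMM library size) in libraries 1, 2 and 3 (adjusted p = 1.254e-38). UQCR10 had 109, 101 and 127 CPM, NDUFA3, an accessory subunit of complex I, 50.1, 41.2 and 57.9 CPM, and NDUFS6, a zinc-binding subunit, 65.03, 49.1 and 63.4 CPM. COX6B1, COX6C, NDUFAB1 (the mitochondrial acyl carrier protein), ATP5F1D, NDUFB10 and NDUFS5 completed the 10, and library 2 was the lowest in all 10. The 10 were picked by p-value in these same libraries. Their p-values take each read as independent and are too small if mates were counted separately. No like count was made for the other genes with the smallest p-values, so it cannot be read as particular to members. The adjusted p-values of the 10 members ran up to 1.61e-13, and the highest library exceeded the lowest 1.09- to 1.40-fold. The largest ratios were those of the low genes COX6B2 (3.83-fold) and COX7B2 (3.19-fold).

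Across all members library 2 was slightly low. Library 2 was the lowest of the 3 in 53 of 86 members (61.6%), beside 36.3% of the other nuclear protein-coding genes. The median deviation from a gene's own mean was 0.015, −0.034 and 0.018 log2 units in libraries 1, 2 and 3, beside 0.00052, −0.00054 and 0.0032 in the other genes. With no TMM factor it was −0.019 in library 2 and 0.0052 in library 3, and relative to genes of like exon length it was 0.0039 in library 3. Complex I had −0.050 in library 2, complex IV −0.037, complex III −0.021 and complex V −0.016, and complex II 0.018. In complex II SDHA had −0.049 and SDHB −0.14 in library 2, whereas SDHD had 0.14 and SDHC 0.085. Mitochondrially encoded genes went the same way, with 2.87% of reads in library 2 and 3.30 and 3.33% in libraries 1 and 3. The deviation of library 2 also fell with exon GC content, with a Spearman rho of −0.44 over the 86 members and −0.37 over the 14054 other genes. Median exon GC was 48.2% in the detected members and 49.0% in the other detected genes. The part of GC content in the members' shift was not tested, nor was that of the mitochondrial reads.

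**Figure D4:**
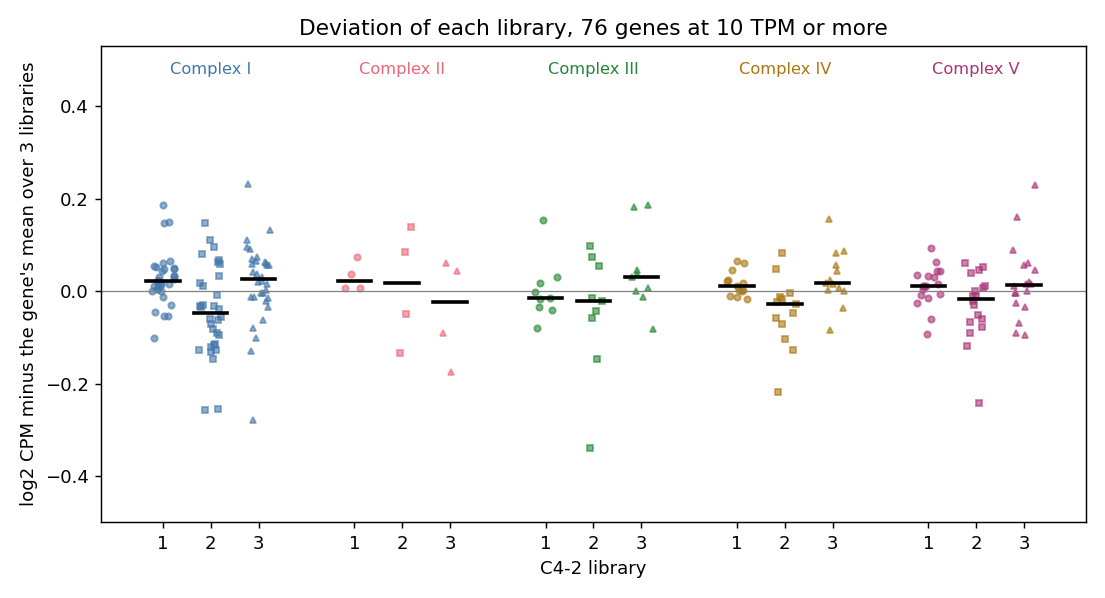
Deviation of log2 CPM from the gene's mean over 3 libraries for the 76 members at 10 TPM or more, by complex and library; the black bars are medians. The library 2 bars lie below 0 in complexes I, III, IV and V and above 0 in complex II.

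Mitochondrially encoded partners of the same complexes were far higher. The nuclear members of complex I had a median of 80.2 ± 3.35 TPM, against 4858 ± 419 TPM for its 7 mitochondrial genes. In complex IV the medians were 130 ± 2.29 TPM for nuclear and 11899 ± 715 TPM for the 3 mitochondrial genes, in complex V 117 ± 2.38 and 8237 ± 261 TPM for the 2 mitochondrial genes, and in complex III 152 ± 1.596 TPM, against 8023 ± 607 TPM for MT-CYB. The difference, nuclear minus mitochondrial, ran from −6.52 ± 0.105 log2 units in complex IV to −5.72 ± 0.124 in complex III. With canonical lengths the nuclear medians were 150.2, 192, 191 and 271 TPM in complexes I, III, IV and V. The size of these differences thus depends on the length used, and they were not recomputed. The highest mitochondrial genes were MT-CO2 at 13517 ± 1809.8 TPM and MT-ATP6 at 12616 ± 242 TPM.

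Genes that the symbol rule leaves out but that serve the chain were nearly all detected. All 13 electron carrier and ubiquinone synthesis genes were detected, with a median of 38.1 TPM, led by CYC1, which encodes the catalytic cytochrome c1 of complex III (439.8, 454 and 450 TPM) and the cytochrome c gene CYCS (145, 154 and 132.5 TPM). All 18 complex I assembly genes were detected (median 33.9 TPM), led by NDUFAF8 at 163 ± 7.30 and TIMMDC1 at 130 ± 8.83 TPM, the second with 29.2% of exon bases shared. Of 22 complex IV assembly genes 21 were detected (median 27.3 TPM), led by COA4 at 159 ± 1.46 and SURF1 at 98.5 ± 0.781 TPM. The copper chaperone gene SCO2 had 0 reads, and 100% of its exon bases lie in exons of other genes. All 4 assembly genes of complex II (median 19.0 TPM), all 9 of complex III (25.7 TPM) and all 5 of complex V (14.6 TPM) were detected. They were led by SDHAF1 (72.3 ± 5.91 TPM) and SDHAF3 (21.3 ± 1.15), by UQCC2 (74.3 ± 1.77) and UQCC4 (55.5 ± 0.651), and by ATPAF1 (62.5 ± 3.91) and TMEM70 (34.9 ± 1.80). Each assembly list had a median below that of the subunits of its complex.

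Partners outside the complexes included the most abundant of these genes. Exchange of nucleotides and phosphate across the inner and outer membranes was served by 10 of 10 detected genes (median 116 TPM). SLC25A5, the widely made ADP/ATP carrier, reached 901 ± 25.8 TPM and SLC25A6 471 ± 13.5 TPM, whereas SLC25A4, the muscle and heart form, lay at 43.5 ± 0.849 TPM. Of 9 other genes that feed ubiquinone 8 were detected, led by the electron transfer flavoprotein gene ETFA (143 ± 6.33 TPM) and GPD2 (37.4 ± 3.74 TPM), and the proline dehydrogenase gene PRODH had 0 reads in every library. All 13 regulators were detected (median 29.4 TPM). The nuclear receptor gene ESRRA was highest at 144 ± 5.81 TPM, followed by the mitochondrial RNA polymerase gene POLRMT at 88.8 ± 0.914, while NRF1 and GABPA lay at 20.7 ± 0.650 and 17.8 ± 1.57. The coactivator gene PPARGC1A lay at 1.24 ± 0.189 TPM. In the variation test 9 of 13 carriers, 3 of 8 other donors, 6 of 10 exchange genes and 8 of 13 regulators passed. So did 12 of 18, 2 of 4, 5 of 9, 10 of 21 and 1 of 5 assembly genes of complexes I to V, and 13 of 13 mitochondrial genes. The shares that passed were 46.1% of all genes and 51.9% of the nuclear protein-coding genes that are no member. The mitochondrial genes had 8283 to 323053 reads per library, and their deviation in library 2 ran from −0.474 (MT-ND4L) to −0.044 log2 units (MT-ND6). The test finds smaller differences in genes with many reads, and the part of read number in these shares was not tested.

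**Figure D5:**
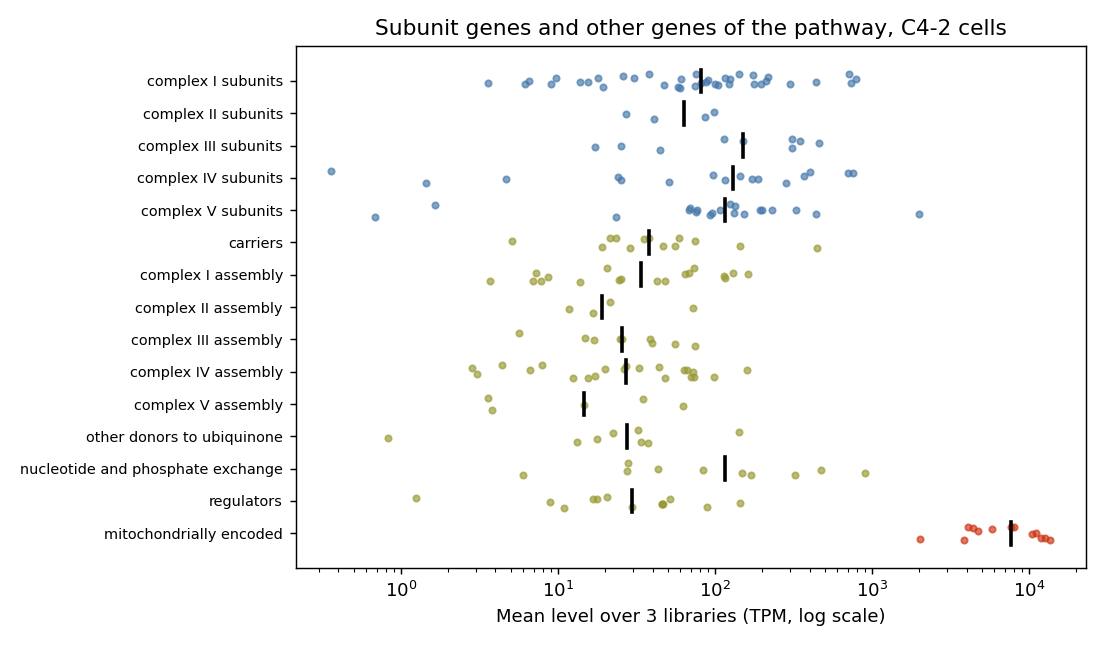
Mean level over 3 libraries (TPM, log axis) of detected subunit genes by complex (blue), of other genes of the pathway by list (olive) and of the 13 mitochondrially encoded genes (red); black bars are medians. The subunit medians lie between 63.6 and 152 TPM, the assembly medians between 14.6 and 33.9 TPM and the mitochondrial median at 7698 TPM.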

How the data were processed

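The files hold raw counts per gene, made by featureCounts 1.6.3 per the file headers, over exons of Ensembl release 90 genes on GRCh38. No option for strand, pairs or reads that map to several places was set there; such reads, and reads over exons of several genes, are then dropped. Per the labels' protocols the library kit was strand-specific. The submitters' processing notes name STAR 2.7.0f, DESeq2 1.26.0, Subread 1.6.3, Trim Galore and FastQC. The deposited counts are whole numbers with differing totals, not normalised. The merged exon length in the files (58302 of 58302 equal to the union of exons) is another deposited value.

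Symbols came from GENCODE 44, matched by identifier (98.7%). TPM was computed from counts and merged exon length over all genes. A gene was detected with 10 reads in every library. A floor of 3 reads equalled 0.0631 CPM in the smallest library. Intervals cover counting error only, with each read taken as independent, and are too narrow if mates were counted separately. Repeated stretches were all 50-base stretches of the canonical transcript found in hg38 outside the gene. The chi-square test and edgeR 4.0.16 TMM factors (R 4.3.3) were used for variation. Python 3.11.15, numpy 2.4.6, pandas 2.3.3, scipy 1.17.1 and matplotlib 3.10.9 did the rest. Members, lists and tests were chosen with earlier results of these data known. Values by library were given for the 3 highest and 2 lowest members per complex, all of complex II, related genes, undetected members and the 10 with the smallest p; from other lists the 2 highest and the undetected genes. NDUFA9, NDUFC2 and other genes given as mean ± SD beyond this rule were named after their values were seen. Alternatives were another length, total, pseudocount or filter, DESeq2 1.42.0 size factors, or 1 library fewer. The values of 1 member of complex I are not reported here.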

Additional observations from a re-analysis of the deposited data

How the results depend on the processing

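No paired analysis was possible because all 3 libraries belong to 1 group. Depth limits the values of the members under 100 reads in a library, and the gene length used and uncounted reads limit how far levels of different genes can be compared. The level of a complex moved by more than its SD between libraries in 26 recomputed values and by less in 34, and the cause was not tested. In the order of complexes I, II, III, IV and V, median TPM was 150.2, 165, 192, 191 and 271 with canonical transcript length, and 122, 96.7, 231, 197 and 178 with only nuclear protein-coding genes in the total. With members under 20% of exon bases shared it was 95.4 in I, 133 in III and 132 in V. With members under 20% of 50-base stretches repeated it was 86.3 in II (1 gene left), 209.9 in III and 116 in IV. With unshared exon bases as length, chosen after seeing the data, it was 88.8 in I, 133 in IV and 122 in V. With members under 20% of canonical bases shared, also chosen then, it was 104 in I, 86.3 in II, 116 in IV and 132 in V. Complex IV moved to 143 with core subunits, 158 with NDUFA4 and NDUFA4L2 in complex I, and 96.9 with all members. Among the recomputed differences between complexes 9 turned and 131 did not, but among the 131 the libraries differed in sign for III minus V with the filter on shared exon bases (0.0016 ± 0.0618) and for IV minus I with unshared bases as length (0.075 ± 0.0801). With canonical length I minus II was −0.13, IV minus I −0.20, IV minus II −0.32 and III minus V −0.49. With the filter on repeated stretches I minus II was −0.10, IV minus I −0.19 and IV minus II −0.29. IV minus I was −0.11 with the filter on shared canonical bases, and V minus IV was −0.14 with detected members only. None of the 88 recomputed differences between related genes turned. The number of variable members (65 as reported) was 39 with the statistic divided by 2 and 25 to 53 without 1 library, lowest without library 2. It was 60 to 65 with other library sizes or filters. Shares of other genes that passed are given above only for the reported count, for the statistic divided by 2 and without library 2. The remaining counts thus give no comparison of members with other genes. The members' share was 1.19% of reads and 2.34% of TPM among nuclear protein-coding genes. The SD of log2 TPM in complex I, examined after seeing the data, was 1.95 with canonical length, 1.91 with unshared bases, 1.62 with the filter on shared canonical bases and 1.77 with that filter and canonical length. The number detected was 80 to 86 over its alternatives. The 12 recomputed library deviations kept their sign, but with no TMM factor that of library 2 was −0.019 in place of −0.034 and that of library 3 was 0.0052 in place of 0.018, and relative to genes of like exon length that of library 3 was 0.0039.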

Other observations

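Many subunit genes have pseudogenes, most of them with 0 counted reads. Reads that map to several places are not counted, so 0 reads need not mean that no transcript was made. The files held 189 pseudogenes named after 50 of the members, of which 109 had 0 reads in all 3 libraries and 20 were detected. Their reads came to 0.815% of the members' reads. COX6C had the most, 17 pseudogenes with 234 reads in all, against 7707 reads for COX6C itself. NDUFV2P1 had 306, 292 and 328 reads, or 71.9% as many over all libraries as were counted for NDUFV2, an iron-sulfur subunit of complex I. In NDUFV2 89.97% of canonical bases lie in exons of another gene, and 30.9% of 50-base stretches recur elsewhere. Reads over such bases or whole within such stretches are not counted, so this percentage is not a ratio of transcript levels. The SDHA copies SDHAP1 and SDHAP4 had 1724, 1466 and 1544 reads and 1340, 1121 and 1219 reads, and with SDHAP3 (292, 280 and 255 reads) they came to 22.9% of the reads of SDHA. UQCRFS1P1 had 268, 210 and 316 reads, or 3.08% of those of UQCRFS1, and the other copies of UQCRFS1 had 0. At least 1 repeated 50-base stretch was found in 47 of the 90 members, and at least 20% of stretches were repeated in 8 of them, led by SDHC (61.1%), COX6A1 (59.8%) and SDHD (50.3%).

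Chromosome 19 carried 12 of the 90 members (13.3%), beside 7.43% of all nuclear protein-coding genes, and chromosomes 1 and 11 carried 8 each. Members had a median canonical transcript of 760.5 bases among those detected, beside 3343.5 bases for the other detected nuclear protein-coding genes.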
